A study of Mus musculus with 8 samples.

Results

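Batf3, Dnph1, Pls1, Mpp4, Gcsam, Fibcd1 and Hc are 7 genes with high transcript levels in an N-Myc T-cell leukaemia and low levels in normal T cells. They were picked by name for high values in the T-cell acute lymphoblastic leukaemia (T-ALL) library and low values in the normal T-cell library, out of 16434 genes in the deposited table, and all 7 were found there. Those 2 values therefore chose the genes and are given as a description, whereas the other 6 libraries were not used in the choice. The study sequenced poly(A) RNA from sorted bone marrow cells of C57BL/6 mice aged 8 to 10 weeks, with 1 library in each of 8 groups. The leukaemias arose under N-Myc overexpression and were sorted for GFP: B-ALL as B220+ GFP+, T-ALL as CD3+ GFP+, acute myeloid leukaemia (AML) as Mac1+ Gr1+ GFP+, and a leukaemia without lineage (acute undifferentiated, AUL) as GFP+ cells negative for B220, CD3, Mac1 and Gr1. The normal cells came from normal bone marrow and were sorted as B220+ (B), CD3+ (T), Mac1+ Gr1+ (myeloid) and negative for B220, CD3, Mac1 and Gr1 (lineage-negative). How N-Myc was introduced, and whether a library came from 1 mouse or a pool, is not given in the sources used here.

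None of the 7 is a textbook gene of the T lineage. Batf3 is a basic leucine zipper transcription factor that pairs with JUN proteins, works with interferon regulatory factors and is known for the development of cross-presenting dendritic cells. Dnph1, formerly called Rcl, is an enzyme that splits deoxynucleoside monophosphates into base and sugar phosphate and is known as a MYC-responsive gene. Pls1 is a plastin that bundles actin filaments in microvilli and hair cells. Mpp4 is a membrane-associated guanylate kinase scaffold of photoreceptor synapses, and Gcsam is a signalling adaptor of germinal centre B cells. Fibcd1 is a surface receptor with a fibrinogen-like domain that binds acetylated compounds such as chitin, and Hc encodes complement component C5, a plasma protein made mainly by the liver. N-Myc, with its partner MAX, binds the E-box CACGTG, which is the frame in which the start sites of these genes are shown next.

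Of the 8 promoter windows that RefSeq gives for these 7 genes (250 bases before to 50 after a start, build GRCm38.p6), 2 held CACGTG, against 7.15% of all 32851 windows of that length. The motif lay 17 bases upstream of the Dnph1 start and 247 bases upstream of the Batf3 start. TGANTCA, the AP-1 site, was in 0 of the 8 windows and in 7.81% of all windows. TGGGAA, the core bound by the Notch effector RBPJ, was in 1 of 8 (Dnph1, 26 bases upstream) and in 25.6% of all windows. Both strands were searched, and a match describes letters only and is no binding site. The windows shown are the 2 with CACGTG, which is in capitals. They are Dnph1 at chr17:46496539-46496838 (plus strand) and Batf3 at chr1:191098164-191098463 (plus strand).
Dnph1: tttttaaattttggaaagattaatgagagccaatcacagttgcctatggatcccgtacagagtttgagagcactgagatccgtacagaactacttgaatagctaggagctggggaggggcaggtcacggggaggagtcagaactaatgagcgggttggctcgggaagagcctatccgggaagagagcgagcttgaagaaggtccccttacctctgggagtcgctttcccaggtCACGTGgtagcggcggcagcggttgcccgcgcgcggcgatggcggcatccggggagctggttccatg
Batf3: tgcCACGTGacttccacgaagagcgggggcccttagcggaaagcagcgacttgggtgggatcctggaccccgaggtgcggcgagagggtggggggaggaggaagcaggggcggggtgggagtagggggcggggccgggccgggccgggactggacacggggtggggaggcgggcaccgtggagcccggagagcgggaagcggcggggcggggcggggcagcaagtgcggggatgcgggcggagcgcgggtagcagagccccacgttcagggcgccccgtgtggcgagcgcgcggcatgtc

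Levels are FPKM, fragments scaled by the authors to gene length and library size. The steps of the FPKM values gave library totals of 33818628 (AUL) to 52280271 (normal myeloid) fragments, and the whole fragments behind every value of the 7 genes. Intervals are 95% Poisson (for a level) or exact binomial (for a fold) and cover counting error only, since no group has a replicate. T-cell markers checked the T gate by their level: the 12 fixed markers had summed FPKM of 4246 in T-ALL and 4575 in normal T cells. All 12 had an FPKM of at least 1 in these 2 libraries, but also in AUL, B-ALL and AML, so that count does not mark a T-cell library. The AUL library, sorted as CD3-negative, carried T-cell transcripts: it had a sum of 3242 and Cd3e at 57.4, against sums of 23.5 to 491.5 in the other 5 libraries. Gates were set on surface protein, whereas these values are RNA, and RNA need not match it. The 491.5 was that of B-ALL, sorted as B220+. There 10 of the 12 were at least 2-fold higher than in normal B cells and 1 lower, against 18.2% and 21.9% of all genes. In the AML library Itgam, the gene of the Mac1 antigen, had an FPKM of 1.63, the lowest of the 8 libraries, against 208.1 in normal myeloid cells. All 9 neutrophil and myeloid markers were at least 2-fold lower in AML than in normal myeloid cells, against 26.7% of all genes. Among them, Camp (1822.5) and Ngp (3881.5) were still higher in AML than in any library but normal myeloid cells. The 9 neutrophil and myeloid markers summed to 10155 in AML and 11366 in B-ALL, against 176564 in normal myeloid cells, 1597 in T-ALL and 1037 in normal T cells. The normal T library also held markers of NK cells (summed FPKM 1084, 54.0 in T-ALL), B cells (693.5, 6.49 in T-ALL), basophils and mast cells (567.7, 1.80 in T-ALL) and plasmacytoid dendritic cells (303.4, 102.3 in T-ALL), and their part in the low values of the 7 genes there was not tested. Leukaemia and normal cells of 1 gate form a pair, compared by the log2 ratio of (FPKM + 1). A gene was called when it differed at least 2-fold on that scale and its higher library had an FPKM of at least 1, which in the T pair holds for 22.1% of 10461 genes in the higher and 24.0% in the lower direction, with a median log2 ratio of 0.03. In bulk RNA, fewer cells of a type and less RNA per cell cannot be told apart. Mycn itself had FPKM of 843 in T-ALL, 719 in AUL, 1587 in B-ALL and 1858 in AML, against 0.518 to 5.24 in the normal libraries.

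**Figure D1:**
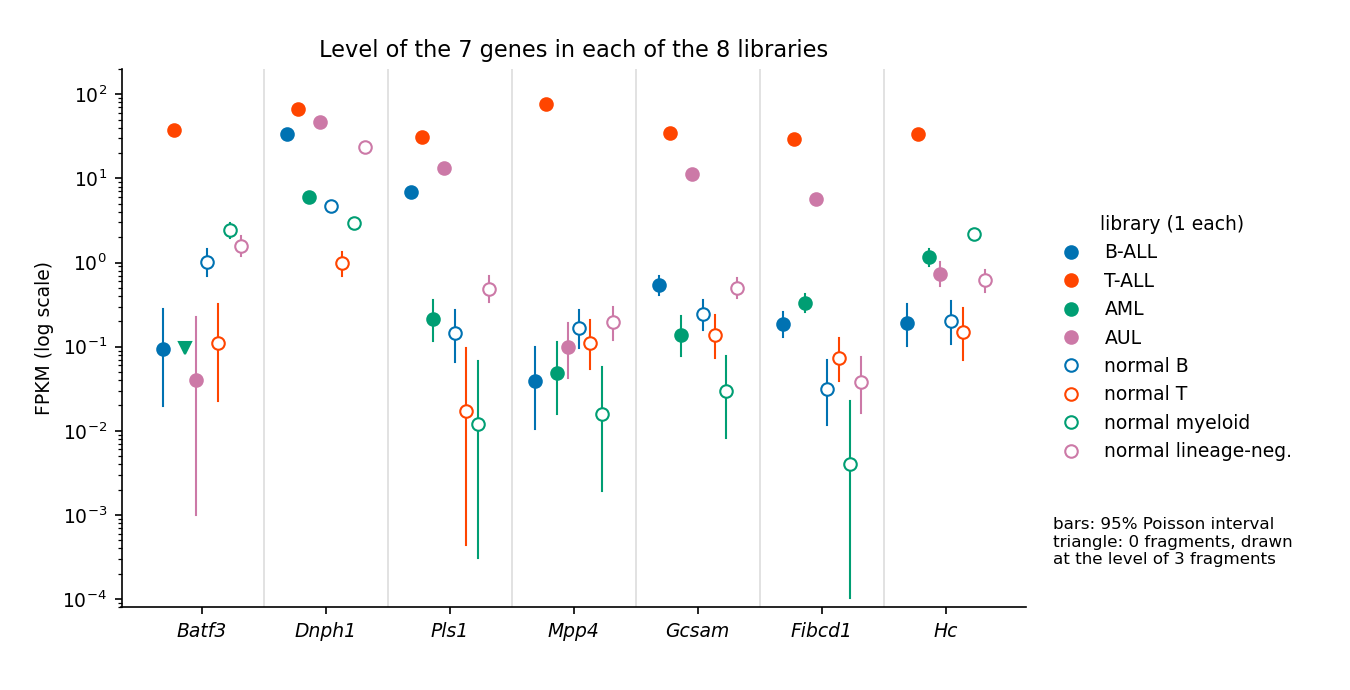
FPKM (log axis) of the 7 genes in the 8 libraries, filled circles for leukaemias and open circles for normal cells, with 95% Poisson intervals; the triangle is Batf3 in AML, at 0 fragments, drawn at the level of 3 fragments. T-ALL is the highest library for every gene, at 29.4 to 77.1, and AUL comes next for Dnph1, Pls1, Gcsam and Fibcd1.

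T-ALL was the highest of the 8 libraries for all 7 genes, which follows in large part from how they were chosen, and the next highest library split them. Dnph1, Pls1, Gcsam and Fibcd1 were next highest in AUL, within 1.43-fold to 5.10-fold of T-ALL. Batf3, Hc and Mpp4 were next highest in a normal library, and T-ALL exceeded it by 15.8-fold, 15.8-fold and 393-fold. Among the 5219 genes with an FPKM of at least 10 in T-ALL, 25 (0.479%) were at least 10-fold above every other library, and these 3 genes were among them.

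The transcription factor Batf3 (ENSMUSG00000026630, mm10 chromosome 1, 191097847 to 191108945, plus strand) was abundant in T-ALL and nearly undetected in the other leukaemias. Its FPKM was 37.9 in T-ALL, 0.0947 in B-ALL, 0 in AML and 0.0400 in AUL, and 1.018, 0.110, 2.41 and 1.58 in the normal B-cell, T-cell, myeloid and lineage-negative libraries. These values rest on 1211, 3, 0 and 1 fragments in the leukaemias and 30, 3, 93 and 52 in the normal cells. The normal B, myeloid and lineage-negative libraries thus lay above all leukaemias but T-ALL, and the 3 lowest leukaemias and normal T cells do not differ beyond counting error between neighbours in that order. Batf3 was 10.8-fold lower in B-ALL than in normal B cells (95% interval 3.34 to 55.04), at least 25.1-fold lower in AML than in normal myeloid cells (against a floor of 3 fragments in the AML library; the exact binomial lower limit is 20-fold) and 39.5-fold lower in AUL than in lineage-negative cells (6.79 to 1592, on 1 fragment). In the T pair it was 346-fold higher (118 to 1679), a ratio that rests on 3 fragments in normal T cells.

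Most listed genes of dendritic cells and of the Batf3 transcription factor network were low in T-ALL or lower than in normal T cells. Among 9 markers of cross-presenting dendritic cells, 2 had an FPKM of at least 1 in T-ALL, Naaa at 17.0 and Wdfy4 at 1.05. Xcr1 was at 0, Clec9a had 0.0338 and the list summed to 18.5, against 49.1 in normal T cells. In the normal B, myeloid and lineage-negative libraries, where Batf3 was present, the list summed to 215.4, 99.0 and 157.4, and Clec9a had 22.9, 1.72 and 11.3. The sum did not follow Batf3 in every library: B-ALL, with Batf3 at 0.0947, had 116, while AML and AUL had 37.1 and 6.81. Wdfy4 alone had 94.5 in B-ALL and 149.5, 43.8 and 65.2 in the normal B, myeloid and lineage-negative libraries. The part of such dendritic cells in the Batf3 levels of these normal libraries was not tested. Of the other 12 genes of the BATF, AP-1 and interferon regulatory factor list, 9 were at least 2-fold lower in T-ALL than in normal T cells and 0 higher, against 24.0% and 22.1% of all genes. The median log2 ratio was -3.45 over the 11 with an FPKM of at least 1. This was not particular to T-ALL. In the B, myeloid and lineage-negative pairs 8, 8 and 9 were lower and 1, 1 and 1 higher, against 21.9%, 26.7% and 29.5% of all genes lower. The medians there were -1.73, -3.04 and -2.30. Fos (7.55 against 858.6), Jun (7.54 against 388.4), Junb (133.1 against 1691) and Irf4 (0.540 against 15.8) were among those lower in T-ALL than in normal T cells. The relative Batf did not separate the pair, with 22.9 in T-ALL and 23.9 in normal T cells. Irf8, a partner of Batf3 in dendritic cells, had 27.0 against 91.1. B-cell markers, which summed to 4636 in normal B cells, 693.5 in normal T cells and 6.49 in T-ALL, moved with this list. Normal B cells had 93.4 FPKM of Irf4 and 965 of Irf8, above normal T cells. They had 607 of Fos, 296.6 of Jun and 585 of Junb, below normal T cells. The part of B cells in the lower values was not tested.

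Dnph1 (ENSMUSG00000040658, chromosome 17, 46496789 to 46499618, plus strand) was the gene of the 7 that was expressed most widely. Its FPKM was 67.3 in T-ALL, 47.1 in AUL, 34.2 in B-ALL and 5.94 in AML, and 4.69, 0.977, 2.94 and 23.5 in the normal B-cell, T-cell, myeloid and lineage-negative libraries. Each leukaemia lay above the normal cells of its gate, and no neighbouring libraries in the order of levels fell within counting error of each other. The folds were 7.29 in the B pair (6.30 to 8.46), 2.02 in the myeloid pair (1.66 to 2.46), 2.01 in the lineage-negative pair (1.86 to 2.17) and 68.8 in the T pair (50.4 to 96.5). The myeloid fold depended on scaling: its log2 ratio of 0.82 fell to 0.13 with libraries rescaled by the median ratio of their genes (median-ratio scaling). Before rescaling the median gene of that pair had 0.56. The B and lineage-negative log2 ratios went from 2.63 to 2.49 and from 0.98 to 1.16. The large T ratio goes with the lowest level of the 8 libraries in normal T cells, 40 fragments, as well as with the highest in T-ALL.

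Other enzymes that clear nucleotides went partly with Dnph1. Of 9 further genes, 4 were at least 2-fold higher in T-ALL than in normal T cells and 1 lower, against 22.1% and 24.0% of all genes (median log2 ratio 0.78, against 0.03 over all genes). The higher ones were Dctpp1, a dCTP pyrophosphatase (172.5 against 21.6, log2 ratio 2.94), Dut, the dUTPase (201.3 against 37.7), Nudt5 (59.3 against 15.0) and Nudt1 (52.1 against 14.8), the last of which removes oxidised purine nucleotides. The deoxynucleotide hydrolase Samhd1 was lower, with 16.8 against 293.5. In the B, myeloid and lineage-negative pairs 3, 6 and 0 of the 9 were higher, against 18.2%, 43.3% and 13.6% of all genes. In the same pairs 1, 2 and 1 were lower, against 21.9%, 26.7% and 29.5%.

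The actin bundler Pls1 (ENSMUSG00000049493, chromosome 9, 95752642 to 95845311, minus strand) was present in 3 leukaemias and under 1 FPKM in all normal libraries. Its FPKM was 31.3 in T-ALL, 13.2 in AUL, 6.90 in B-ALL and 0.212 in AML, and 0.144, 0.0173, 0.0122 and 0.489 in the normal B-cell, T-cell, myeloid and lineage-negative libraries. Normal T and normal myeloid cells each had 1 fragment. The lymphoid leukaemias and AUL lay above all normal libraries, while AML overlapped normal B cells within counting error. Pls1 was 47.8-fold higher in B-ALL than in normal B cells (24.9 to 105), 26.9-fold higher in AUL than in lineage-negative cells (19.1 to 39.2) and 17.3-fold higher in AML than in normal myeloid cells (2.63 to 731.5), the last at levels under 1 FPKM. In the T pair it was 1807-fold higher, with an interval of 324 to 71403 that reflects the single fragment in normal T cells.

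Its relative Lcp1, the leukocyte plastin, did not separate the T pair (655.1 in T-ALL against 597.2), and Pls3 was under 1 FPKM in both. Of the 6 other actin-bundling genes listed, 4 had an FPKM of at least 1 in the T pair. Of these, 2 were at least 2-fold higher in T-ALL and 1 lower, against 22.1% and 24.0% of all genes. Espn, which bundles actin in stereocilia, had 24.5 against 8.03, the muscle actinin Actn2 had 19.2 against 6.88, and Actn1 had 35.4 against 94.1. In the B, myeloid and lineage-negative pairs 2 of 4, 0 of 2 and 3 of 5 were higher, against 18.2%, 43.3% and 13.6% of all genes. In the same pairs 1, 2 and 1 were lower, against 21.9%, 26.7% and 29.5%. Trpc1, a cation channel gene on the same strand that begins 2.3 kb beyond the end of Pls1 on the chromosome, had a similar order of levels: 12.7 in T-ALL, 4.93 in AUL and 0.678 in B-ALL, against 0 to 0.221 in the normal libraries and 0.0633 in AML.

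**Figure D2:**
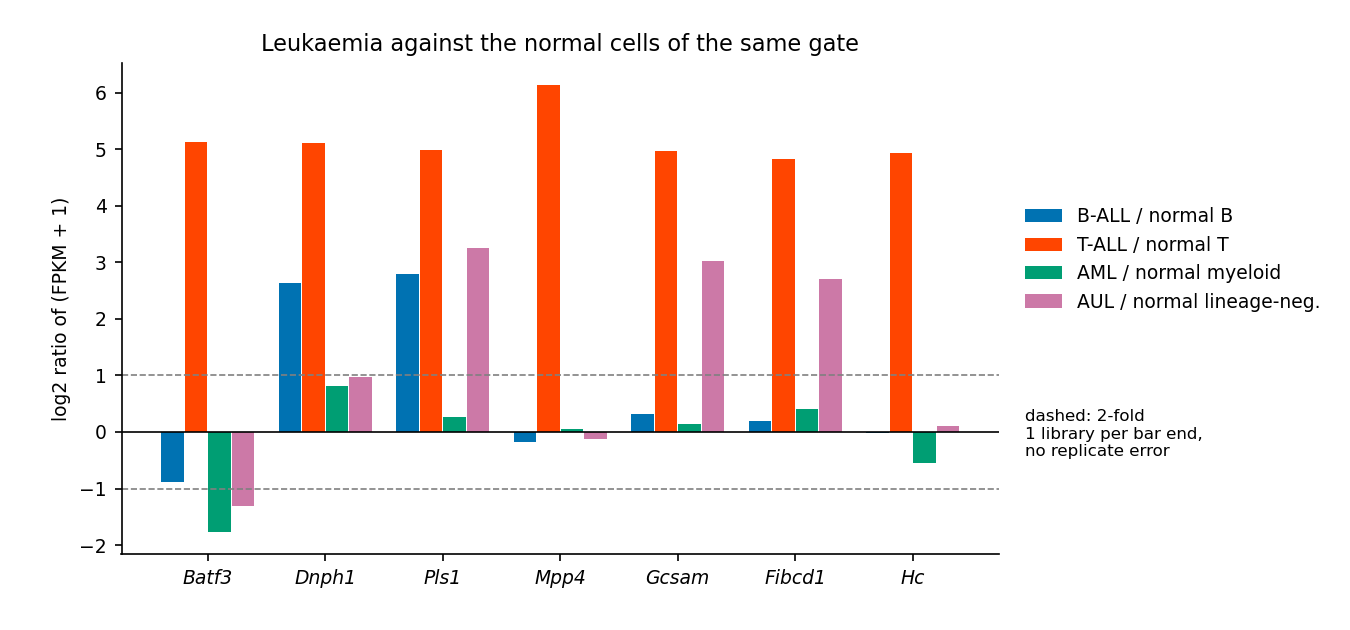
Log2 ratio of (FPKM + 1), leukaemia over the normal cells of the same gate, for the 7 genes; each bar compares 1 library with 1 library and the dashed lines mark 2-fold. T-ALL bars reach 4.82 to 6.13, AUL bars pass 2-fold for Pls1, Gcsam and Fibcd1, and the Batf3 bars of the other 3 pairs point down.

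Mpp4 (ENSMUSG00000079550, chromosome 1, 59120935 to 59163389, minus strand) had the sharpest contrast between T-ALL and every other library. Its FPKM was 77.1 in T-ALL, on 8026 fragments, 0.0387 in B-ALL, 0.0491 in AML and 0.0982 in AUL. The normal B-cell, T-cell, myeloid and lineage-negative libraries had 0.167, 0.112, 0.0159 and 0.196, on 2 to 21 fragments. T-ALL held 99.1% of the sum over the 8 libraries, and from the second place down no neighbouring libraries differed beyond counting error. The T-ALL level was 687-fold that of normal T cells (373.5 to 1434). Photoreceptor genes did not accompany it: the 3 listed of 7 summed to 0.761 FPKM in T-ALL.

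Transcripts around Mpp4 differed in whether T-ALL stood apart. Gm29017, annotated as antisense to Mpp4, had 5.001 in T-ALL and 0.0141 to 0.515 elsewhere, and without strand information its fragments and those of Mpp4 cannot be told apart. The next genes downstream of Mpp4, Tmem237 and Trak2, had 14.5 and 46.3 in T-ALL against 3.98 and 60.7 in normal T cells.

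**Figure D3:**
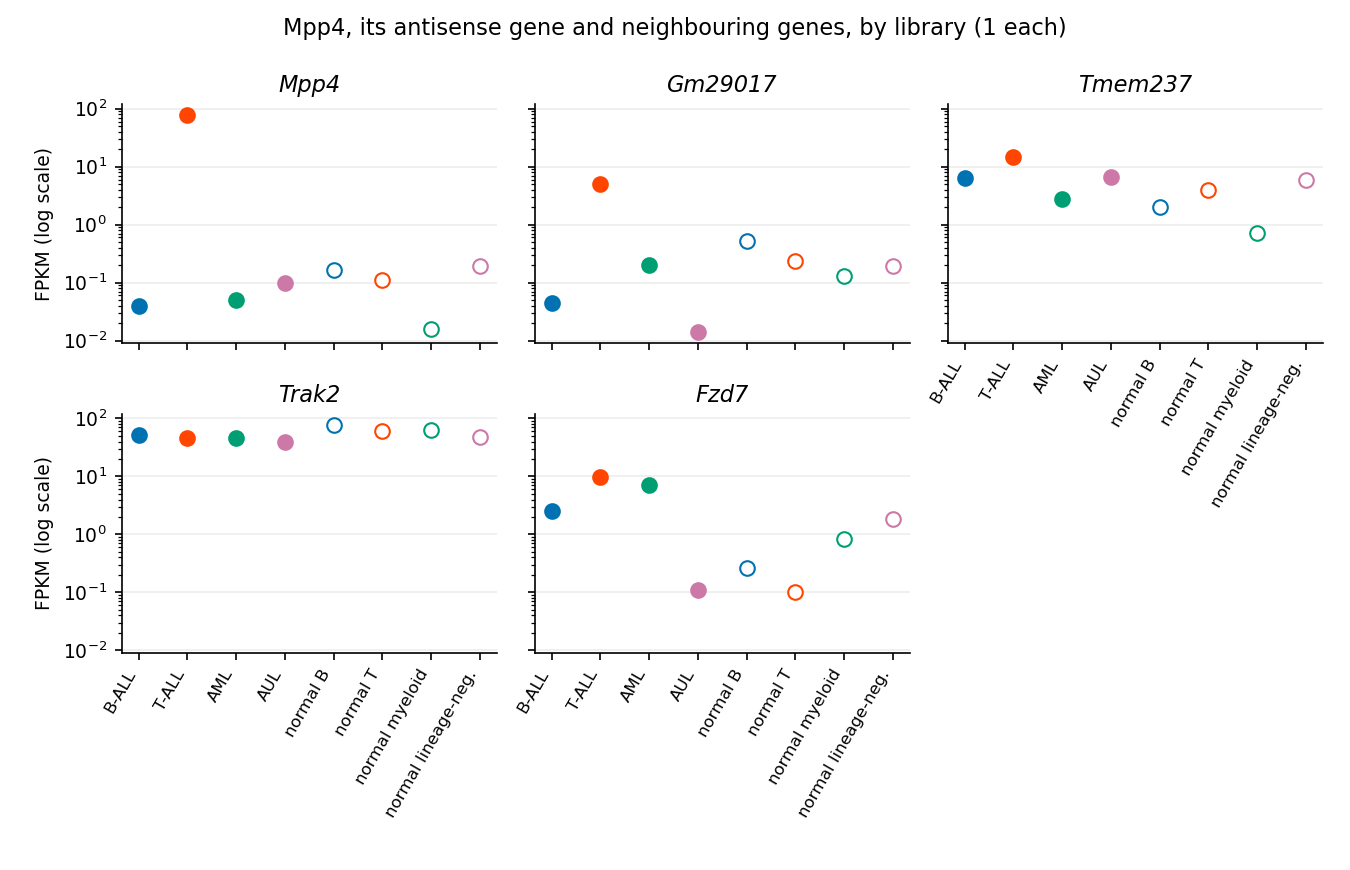
FPKM (log axis) of Mpp4, of Gm29017, which is antisense to it, and of the neighbouring genes Tmem237, Trak2 and Fzd7, in the 8 libraries (1 each; open circles, normal cells). T-ALL stands apart for Mpp4 (77.1) and Gm29017 (5.001), and not for Trak2 (46.3).

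Among the other scaffold and polarity genes of the Mpp4 list, 12 of 18 were in the table and 6 had an FPKM of at least 1 in the T pair. Of these, 3 were at least 2-fold higher and 3 lower, against 22.1% and 24.0% of all genes. In the B, myeloid and lineage-negative pairs 3 of 8, 1 of 4 and 2 of 7 were higher, against 18.2%, 43.3% and 13.6%. In the same pairs 2, 1 and 1 were lower, against 21.9%, 26.7% and 29.5%. The values that follow are T-ALL against normal T cells. Mpp2, a close relative, had 21.97 against 1.14, Mpp6 had 72.8 against 13.3 and the synaptic scaffold gene Dlg4 had 60.4 against 20.2. Mpp5 (0.382 against 3.24), Dlg3 (0.742 against 3.05) and the polarity gene Crb3 (0.236 against 1.77) were lower. Mpp6 was not particular to T-ALL, with 59.1 in B-ALL, 88.2 in AML and 68.5 in AUL.

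Gcsam (ENSMUSG00000022659, chromosome 16, 45610380 to 45622867, plus strand) was high in T-ALL and AUL. Its FPKM was 34.7 in T-ALL, 11.3 in AUL, 0.538 in B-ALL and 0.139 in AML, and 0.245, 0.137, 0.0299 and 0.501 in the normal B-cell, T-cell, myeloid and lineage-negative libraries. T-ALL and AUL lay above the other 6 libraries, all of which were under 1 FPKM. The level was 22.5-fold higher in AUL than in lineage-negative cells (17.3 to 30.0) and 253-fold higher in T-ALL than in normal T cells (147.5 to 474.8). No other listed germinal centre gene was called higher in T-ALL. Of the 8 listed, 6 had an FPKM of at least 1 in the T pair. Of these, 3 were at least 2-fold lower and 0 higher, against 24.0% and 22.1% of all genes. The 3 were Pou2af1 (9.46 against 65.5), Lmo2 (3.58 against 21.95) and Fas (0.521 against 17.9). Rgs13 was at 0 in T-ALL, and Bcl6 had 2.56 against 5.79. In the B, myeloid and lineage-negative pairs 4 of 7, 5 of 6 and 3 of 6 were lower, against 21.9%, 26.7% and 29.5% of all genes. In the same pairs 0, 0 and 1 were higher, against 18.2%, 43.3% and 13.6%. The same B-cell markers (693.5 in normal T cells, 6.49 in T-ALL) moved with these genes. Normal B cells had 407.5 FPKM of Pou2af1 and 168.4 of Lmo2, above normal T cells, and 2.80 of Fas, below normal T cells. The part of B cells was not tested.

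Fibcd1 (ENSMUSG00000026841, chromosome 2, 31813290 to 31846005, minus strand) followed the same order at the top. Its FPKM was 29.4 in T-ALL, 5.77 in AUL, 0.187 in B-ALL and 0.333 in AML, and 0.0317, 0.0740, 0.00403 and 0.0379 in the normal B-cell, T-cell, myeloid and lineage-negative libraries. All 4 leukaemias lay above all 4 normal libraries, and those of the normal libraries that neighbour each other were within counting error. Fibcd1 was 152-fold higher in AUL than in lineage-negative cells (77.0 to 354) and 398-fold higher in T-ALL than in normal T cells (232.5 to 747.6). In AML it was 82.8-fold higher than in normal myeloid cells (14.4 to 3318, on 1 fragment) and in B-ALL 5.89-fold higher than in normal B cells (2.47 to 17.1), both at levels under 1 FPKM. Over the 6 libraries outside the T pair, Fibcd1 and Gcsam had a Pearson correlation of 0.98 on log2(FPKM + 1), a description that rests mainly on the high AUL value of both. Of 11 other genes with fibrinogen-like domains, 3 had an FPKM of at least 1 in the T pair. Of these, the ficolin Fcnb was at least 2-fold higher in T-ALL (11.9 against 2.56) and Fgl2 lower (0.202 against 19.7). Over all genes, 22.1% were higher and 24.0% lower. Fcnb had 502.9 FPKM in normal myeloid cells, and the neutrophil and myeloid marker sum was also higher in T-ALL than in normal T cells (1597 against 1037, with 1 of the 9, Ngp, called higher); its part in the Fcnb difference was not tested.

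Hc (ENSMUSG00000026874, chromosome 2, 34983331 to 35061438, minus strand) was high in T-ALL alone among the leukaemias. Its FPKM was 34.0 in T-ALL, 0.189 in B-ALL, 1.16 in AML and 0.736 in AUL, and 0.203, 0.151, 2.16 and 0.616 in the normal B-cell, T-cell, myeloid and lineage-negative libraries. Outside T-ALL the myeloid libraries were the highest, and AML was 1.85-fold lower than normal myeloid cells (1.42 to 2.45). The B pair (0.930-fold, 0.397 to 2.18) and the lineage-negative pair (1.20-fold, 0.759 to 1.88) did not differ beyond counting error. Hc was 225-fold higher in T-ALL than in normal T cells (118 to 491.7).

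Hepatocyte genes did not accompany Hc. Of 7 liver markers, 5 were at 0 in T-ALL, including albumin (Alb), and the list summed to 2.94 there. It summed to 36.9 in normal T cells and 110.3 in AUL, where Hc was 0.151 and 0.736. Of 21 other complement genes in the table, 10 had an FPKM of at least 1 in the T pair. Of these, 0 were at least 2-fold higher and 3 lower, against 22.1% and 24.0% of all genes, so the lower share was near that of all genes. In the B, myeloid and lineage-negative pairs 7 of 11, 11 of 13 and 11 of 14 were lower, against 21.9%, 26.7% and 29.5%. In the same pairs 2, 2 and 1 were higher, against 18.2%, 43.3% and 13.6%. The 3 lower in the T pair were Cd55 (0.358 against 67.4), Cr2 (0.123 against 7.28) and Cr1l (33.9 against 74.1). All 3 restrain or bind complement fragments at the cell surface. Normal B cells had 229.7 FPKM of Cd55, 58.1 of Cr2 and 65.6 of Cr1l. B-cell markers were lower as well (693.5 in normal T cells, 6.49 in T-ALL), and the part of B cells was not tested. C8a and C8b, the listed partners of C5 in the membrane attack complex, were at 0 in T-ALL. C3, which acts upstream of C5, had 20.03 against 13.02, and the C5a receptor gene C5ar1 had 1.85 against 3.28.

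**Figure D4:**
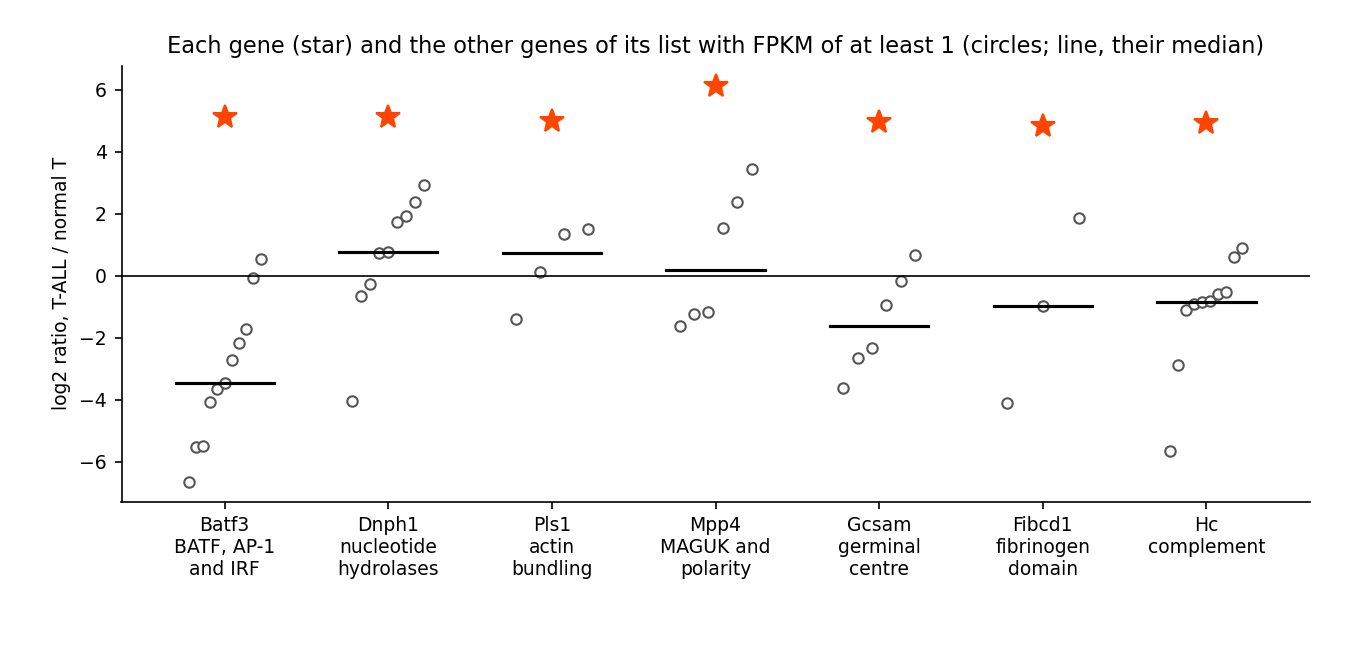
Log2 ratio of T-ALL over normal T cells for each of the 7 genes (stars) and for the other genes of its list with an FPKM of at least 1 in either library (circles; line, their median). The medians run from -3.45 for the BATF, AP-1 and interferon regulatory factor list to 0.78 for the nucleotide hydrolases. The stars, at 4.82 to 6.13, are the values that chose the genes, so their distance from the medians was fixed by the choice.

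Levels of different genes compare only through the gene length used. The fragment steps fit the mean length of the annotated transcripts, which is 1606 bases for Hc and 1562 for Pls1, while their longest transcripts have 5445 and 3704 bases. Scaled by the longest transcript, the T-ALL levels would be 67.3 for Dnph1, 52.6 for Mpp4, 29.4 for Fibcd1, 26.8 for Gcsam, 25.3 for Batf3, 13.2 for Pls1 and 10.0 for Hc. Mpp4 and Dnph1 change places at the top and Hc becomes the lowest of the 7. Folds between libraries do not depend on the length.

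In the T pair all 7 genes were called higher, against 22.1% of genes, which the choice of genes fixes and from which nothing is read. They held ranks 2 and 6 to 11 by log2 ratio among the 6268 genes that reached an FPKM of 10 in T-ALL or normal T cells. Mycn ranked first, and Alpl, Perp and 1810011H11Rik ranked 3 to 5. At the lower end Fibcd1 had 4.82, and the next gene, Slc22a3, which is no member, had 4.75 (44.8 against 0.695 FPKM).

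Outside the T pair the calls differed by leukaemia. In AUL against lineage-negative cells 3 of 7 genes were called higher (Pls1 3.25, Gcsam 3.03, Fibcd1 2.71), against 13.6% of 10759 genes, and Batf3 was called lower (-1.31), against 29.5%. Dnph1, at 0.98, missed the 2-fold line there and passed it with a pseudocount of 0.1 or with median-ratio scaling. In B-ALL against normal B cells 2 of 7 were called higher (Pls1 2.79, Dnph1 2.63), against 18.2% of 10608 genes, and 0 lower, against 21.9%. In AML against normal myeloid cells 0 of 7 were called higher, against 43.3% of 9965 genes, and Batf3 was called lower (-1.77), against 26.7%. Of all calls in the myeloid pair 61.8% were higher, and 40.0% under median-ratio scaling, which moved the median gene there by -0.69 and in the B, T and lineage-negative pairs by -0.11, -0.15 and 0.17. Under that scaling Hc was also called lower in AML.

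Over the B, myeloid and lineage-negative pairs, which the choice of genes did not use, leukaemia was tested against normal with limma and the gate as a block. Of the 7 genes, 4 passed the filter on low values (FPKM of at least 1 in at least 2 of the 6 libraries), and 0 of these 4 passed at an adjusted p of 0.05. Over all 10572 genes 2 were called higher (0.0189%) and 1 lower (0.00946%), so the test with 3 pairs called few genes of any kind. At an unadjusted p under 0.05 there were 3 of the 4 members and 1191 higher and 1472 lower genes in all. Batf3 was lower in 3 of 3 pairs, with a mean log2 difference of -1.32 ± 0.44 (SD, n = 3 pairs; limma adjusted p = 0.143). Pls1 was higher in 3 of 3 pairs (2.10 ± 1.61 SD; limma adjusted p = 0.144), and so was Dnph1 (1.47 ± 1.00 SD; limma adjusted p = 0.187). Hc was higher in 1 of 3 pairs (-0.15 ± 0.35 SD; limma adjusted p = 0.794).

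Mpp4, Gcsam and Fibcd1 did not pass the filter. Without it, all 7 genes were tested and 0 passed, with mean log2 differences of -0.08 for Mpp4 (limma adjusted p = 0.602), 1.16 for Gcsam (0.349) and 1.11 for Fibcd1 (0.312). The spread between pairs for Gcsam (SD 1.62) and Fibcd1 (SD 1.39) exceeded their mean, with the AUL pair high and the other 2 pairs at 0.14 to 0.41. Left without the lineage-negative pair, whose AUL library carried T-cell markers, Batf3 passed (-1.33, limma adjusted p = 0.0437, lower in 2 of 2 pairs). It was 1 of 583 genes in all, against 3 genes over the 3 pairs, and this fit had 1 residual degree of freedom. The Batf3 difference itself was -1.31 in the lineage-negative pair and -1.32 on average over 3 pairs. Without the B pair, or without the myeloid pair with its low Itgam in AML, 0 of the 3 members tested passed. An exact sign-flip permutation over 3 pairs cannot give a two-sided p below 0.25.

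The genes next to the 7 were examined, since neighbours were not part of the choice. The 2 nearest listed coding genes on each side, leaving out those that overlap, gave 28 genes, of which 22 had an FPKM of at least 1 in the T pair. Of these, 8 (36.4%) were at least 2-fold higher in T-ALL, against 22.1% of all genes, and 5 (22.7%) were lower, against 24.0%, with a median log2 ratio of 0.44 against 0.03. These shares describe 22 genes in 2 libraries and were not tested. The 3 largest were next to Fibcd1, Pls1 and Mpp4. Aif1l, an actin-binding protein gene 104.1 kb from Fibcd1, had 13.7 against 0.177 FPKM, Trpc1 had 12.7 against 0.155, and the Wnt receptor gene Fzd7, 319.0 kb from Mpp4, had 9.61 against 0.101. Around Gcsam, Cd200 and Btla, both inhibitory surface proteins of lymphocytes, were lower (1.34 against 10.7 and 1.26 against 27.0), and the genes on its other side were under 1 FPKM in both libraries. Around Hc, the signalling adaptor Traf1, 21.6 kb away, was lower (5.23 against 108), and Phf19, a Polycomb-associated gene 69.3 kb away, was higher (57.7 against 8.05). Atf3, an AP-1 family gene 61.4 kb from Batf3, had 0.0473 against 3.72. Fibcd1 and Hc lie 3.14 Mb apart on chromosome 2, with 35 coding genes between them that had an FPKM of at least 1. Of these 35, 14 were higher and 6 lower, against 22.1% and 24.0% of all genes. Their median log2 ratio was 0.74, against 0.03, with the largest ratio at Angptl2 (3.69). Whether this stretch differs from others was not tested.

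**Figure D5:**
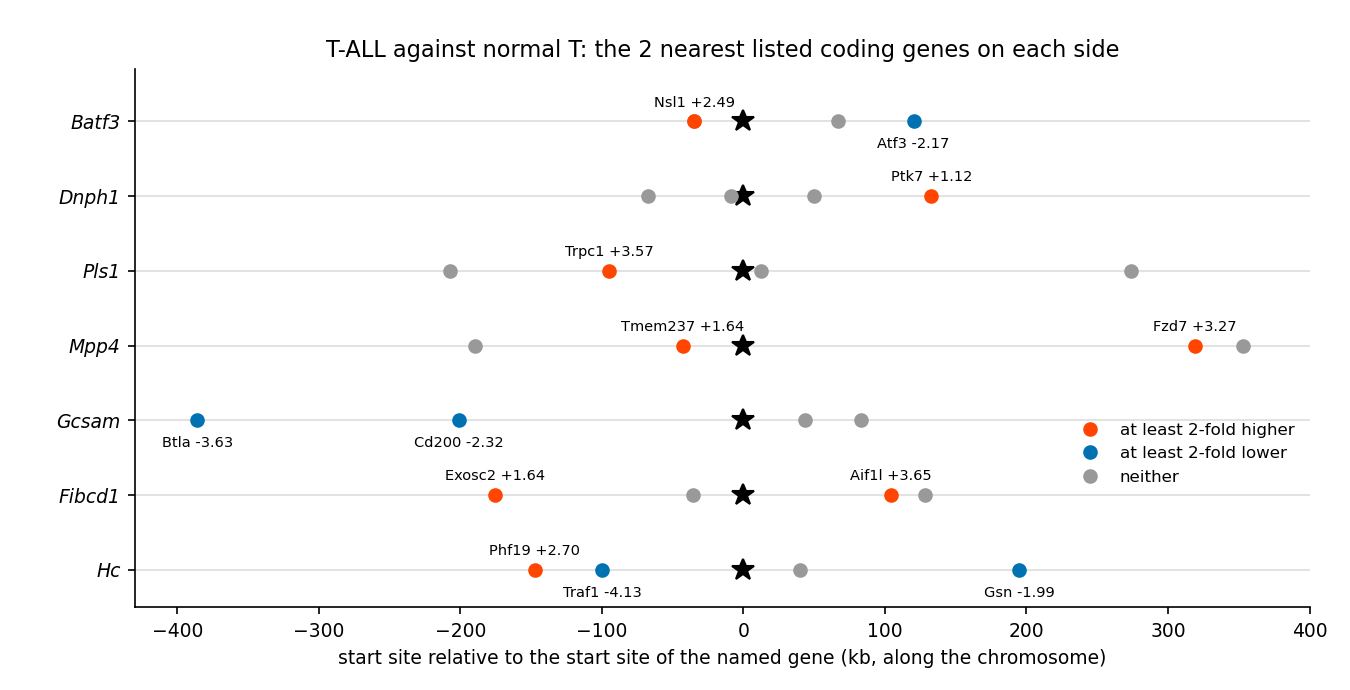
Distance of the start site of each of the 28 neighbouring coding genes from that of the gene named on the left (star), in kb along the chromosome, coloured by its call in T-ALL against normal T cells, with the log2 ratio of called genes; Tatdn3 lies under the point of Nsl1. Higher and lower neighbours occur side by side, as with Phf19 (2.70) and Traf1 (-4.13) near Hc.

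For each of the 7, the 3 genes with the closest pattern were taken by Pearson correlation of log2(FPKM + 1) over the 8 libraries, among 7000 genes with an FPKM of at least 10 in some library. These correlations share the 8 libraries and are dominated by the T-ALL value. Mpp4 was closest to Shisa6, which modulates glutamate receptors (r = 0.9992, 21.7 FPKM in T-ALL and 0 in normal T cells), Serpinb5 (13.3 and 0) and the glutamate transporter gene Slc1a6 (20.1 and 0). Gcsam and Fibcd1 shared Cdh13, a cadherin gene (24.1 in T-ALL, at most 5.50 elsewhere), and Btbd17 (12.9, at most 4.38) among their closest genes. Pls1 was closest to Lgi2, Nes and Adarb1, with T-ALL levels of 10.5, 10.2 and 14.1. Batf3 and Hc shared Rab15 (10.9, at most 0.329 elsewhere), and Hc was itself the closest gene to Batf3 (r = 0.9335). The T pair, which chose both, carries that value: over the 6 other libraries r was 0.38 for Batf3 and Hc, and for Mpp4 and Hc it was -0.52, against 0.95 over all 8. Dnph1 was closest to Rfc2, a subunit of the replication clamp loader (r = 0.9657, 117 in T-ALL and 55.01 in normal T cells), Fignl1 and Prkag2, none of which was particular to T-ALL.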

How the data were processed

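The 8 libraries are 1 per group, per the labels. The authors removed reads with adaptors or uncertain bases and mapped to mm10, per the labels' protocols; STAR, HTSeq and edgeR are named without versions, per the submitters' processing notes. The deposited values are FPKM computed by the authors, and the rule by which genes entered the table is not given in the sources used here. FPKM multiplied by the rounded mean transcript length (GENCODE M21) fell within 0.02 of whole multiples of 1 step per library for 99.93% to 99.96% of values under 100 fragments in single-transcript genes, and for 87.3% to 88.8% over all genes. The 7 genes lay within 0.00069 of whole fragments; Dnph1 needed 84 bases less, the difference between annotated and deposited ends. A fold is a ratio of FPKM, and a log2 ratio uses FPKM + 1. limma 3.58.1 (lmFit, eBayes with trend, two-sided, Benjamini-Hochberg) was fitted to 3 pairs with the gate as a block and tested on simulated data. Named genes were the 7, an antisense gene, the nearest 2 coding genes per side, the 3 closest patterns each and list genes that were called in the T pair or had an FPKM of at least 5 in T-ALL; further list genes were named after their values were seen. The genes and lists were chosen with earlier results of these data known. Some genes are not reported here. Alternatives were the pseudocount, the filter, the scaling, the fold, the block and each pair left out.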

Additional observations from a re-analysis of the deposited data

Results flagged for a closer look

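Batf3 went in opposite directions in different gates, with a log2 ratio of 5.13 in T-ALL against normal T cells, -1.77 in AML against normal myeloid cells and -1.31 in AUL against lineage-negative cells. With 1 library per group the difference between gates was not tested. The value in the T pair is one that chose the gene.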

How the results depend on the processing

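No group had a replicate, so every pair comparison is free of a replicate check, and genes under about 1 FPKM rest on few fragments. The counts of the 7 genes called higher stayed within 1.5 times of 2 (B), 7 (T), 0 (myeloid) and 3 (lineage-negative) under a pseudocount of 0.1, both other scalings, no minimum FPKM and a 4-fold rule. Batf3 lost its lower calls under the 4-fold rule and gained one in the B pair with a pseudocount of 0.1. No called log2 ratio changed sign under the pseudocount of 0.1 or median-ratio scaling. Their size was less stable: of 28 log2 ratios, 22 left the range given by the Poisson intervals of the 2 levels with a pseudocount of 0.1, and 8 under median-ratio scaling. In the T pair a pseudocount of 0.1 took Pls1 from 4.99 to 8.06 and Dnph1 from 5.11 to 5.97. The order of the 7 by log2 ratio thus depends on the pseudocount. In limma over 3 pairs, 3 genes passed in all, against 1 with a pseudocount of 0.1, 0 without the filter, 1 with median-ratio scaling and 2 without the gate block. Leaving out 1 pair gave 0 (without the myeloid pair) to 682 genes (without the B pair), with 583 without the lineage-negative pair. Among the 3 members tested in each of these fits, 0 to 1 passed. The 1 was Batf3 without the lineage-negative pair (limma adjusted p = 0.0437), on 1 residual degree of freedom; the cause was not tested. No paired analysis was possible by replicate number because the labels carry none.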

Other observations

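Besides Mpp4, 7 genes had an FPKM of at least 10 in T-ALL and at least 50 times that of every other library. They were Shisa6 (930-fold), Serpinb5 (315-fold), Slc1a6 (178-fold), Syt13 (88.1-fold), Cdcp1 (84.0-fold), Zfp536 (82.5-fold) and Adamts20 (65.3-fold), at 12.7 to 21.7 FPKM, and they were picked by this rule after their values were seen. The highest T-ALL levels among the 25 genes at least 10-fold above every other library were those of Il17rb, a receptor for the cytokine IL-25 (135.7 FPKM, at most 7.71 elsewhere), and Zbtb16, a transcription factor of innate-like T cells (98.4, at most 3.98 elsewhere, in normal T cells).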
